A study of Mus musculus with 24 samples.

Results

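Lipolysis, the release of fatty acids from stored triglyceride, was followed at the transcript level in mouse interscapular brown fat through 5 genes: Pnpla2, Lipe, Mgll, Abhd5 and G0s2. The genes were chosen by name, as the 3 lipases of the pathway and 2 regulators of its opening step, and all 5 were found among the 13162 genes listed in the authors' deposited tables. Each of the 5 was listed in all 5 tables, so none was lost to a filter on low values. Earlier results of these data were known when these genes and the gene lists below were chosen. Counts of calls among them, set beside the shares of all genes, are thus descriptive.

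The study asked, per its design text, whether one cold exposure leaves a lasting trace in control mice and in mice that lack HDAC3 in brown fat. The KO mice carried the Ucp1-cre transgene with floxed Hdac3, and the Control mice carried floxed Hdac3 without Cre. All mice were males on a C57BL/6 background, 10 to 12 weeks old, killed at ZT10, which is 10 h after lights on in a 12 h light cycle. Recovery groups spent 24 h at 15 °C and then 24 h or 7 d at 22 °C, and the remaining mice stayed at 22 °C. This gave 6 groups of 4 libraries, which were KO and Control at 22 °C, KO and Control after 24 h of recovery, and KO and Control after 7 d of recovery. Cre is driven by the Ucp1 promoter, so deletion is directed to brown adipocytes and other cells of the depot keep the gene. The labels speak of biological replicates without saying that each library is 1 mouse, so p-values measure the spread between these libraries.

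Triglyceride is broken down in 3 steps at the surface of the lipid droplet. Adipose triglyceride lipase, encoded by Pnpla2, removes a fatty acid from triglyceride, hormone-sensitive lipase, encoded by Lipe, acts on the diglyceride that remains, and monoacylglycerol lipase, encoded by Mgll, frees the glycerol. ABHD5, also called CGI-58, is the coactivator of adipose triglyceride lipase and is held by perilipin 1 until catecholamines signal, whereas G0S2 binds the same lipase and inhibits it. In brown fat the released fatty acids fuel mitochondria and activate UCP1. HDAC3 is a histone deacetylase that works within the NCoR and SMRT corepressor complexes.

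The sequence just upstream of the start site of each gene is shown. At 22 °C, 3 of these genes were called higher in KO, and Pnpla2 and G0s2 were not called. Whether the sequences bear on these calls was not tested. RefSeq windows on GRCm38.p6 were matched for 5 of 5 genes, in 7 windows, because Lipe and Mgll each have 2 annotated start sites. The 250 bases before 1 start site of each gene are printed 5′ to 3′ on the strand of the gene, and capitals mark matches on either strand to the motifs named after them.
Pnpla2 chr7:141454938-141455187 (+ strand): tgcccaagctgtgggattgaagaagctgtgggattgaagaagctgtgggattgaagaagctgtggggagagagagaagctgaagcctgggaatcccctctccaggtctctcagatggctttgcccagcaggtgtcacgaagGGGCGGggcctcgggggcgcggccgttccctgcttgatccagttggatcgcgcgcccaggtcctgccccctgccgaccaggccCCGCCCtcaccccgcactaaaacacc
Lipe chr7:25390113-25390362 (- strand): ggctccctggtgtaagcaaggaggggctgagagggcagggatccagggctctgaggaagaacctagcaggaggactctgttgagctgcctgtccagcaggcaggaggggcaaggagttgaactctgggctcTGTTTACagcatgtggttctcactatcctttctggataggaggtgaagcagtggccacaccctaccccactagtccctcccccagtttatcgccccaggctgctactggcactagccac
Mgll chr6:88724162-88724411 (+ strand): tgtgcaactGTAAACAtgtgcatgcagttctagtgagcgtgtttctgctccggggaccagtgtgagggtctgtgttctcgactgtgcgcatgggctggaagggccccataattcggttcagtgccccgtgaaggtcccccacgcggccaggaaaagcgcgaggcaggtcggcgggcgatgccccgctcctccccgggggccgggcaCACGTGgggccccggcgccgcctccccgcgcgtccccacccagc
Abhd5 chr9:122351366-122351615 (+ strand): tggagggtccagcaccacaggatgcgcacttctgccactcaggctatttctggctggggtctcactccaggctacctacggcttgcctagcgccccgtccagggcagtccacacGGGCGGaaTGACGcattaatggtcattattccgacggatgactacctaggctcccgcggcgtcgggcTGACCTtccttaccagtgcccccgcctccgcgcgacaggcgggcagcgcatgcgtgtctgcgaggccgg
G0s2 chr1:193273189-193273438 (- strand): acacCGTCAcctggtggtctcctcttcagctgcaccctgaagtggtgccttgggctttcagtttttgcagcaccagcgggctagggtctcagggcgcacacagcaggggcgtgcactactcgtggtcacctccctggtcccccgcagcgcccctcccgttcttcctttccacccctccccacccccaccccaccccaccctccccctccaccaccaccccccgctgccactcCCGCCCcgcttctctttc
Both strands were searched for short motifs of factors known to act on fat cell genes. The nuclear receptor motif was AGGTCA, with its 9-base form TNAAGGTCA for estrogen-related receptors and the direct repeat bound by PPAR as longer elements. The cAMP response was searched as the core letters TGACG and as the full element TGACGTCA. C/EBP proteins were searched as TTGCNNAA, E-box proteins as CACGTG, and FOXO factors as TGTTTAC. The GC box was searched as GGGCGG, and the TATA box by the letters TATAAA. The nuclear receptor motif lies within both of its longer elements, and the cAMP core lies within the full element, so those matches overlap.
The Abhd5 window held the nuclear receptor motif at positions -69 to -64, counted from the start site, and the cAMP core TGACG at -128 to -124. Among all 32851 windows of this length, 14.0% held the nuclear receptor motif and 17.8% held TGACG. The window of G0s2 held TGACG on the opposite strand at -246 to -242. FOXO letters lay at -119 to -113 in the printed Lipe window and at -241 to -235 in the printed Mgll window, against 3.17% of all windows with a match. E-box letters were in 2 of 7 windows, 1 of Mgll and 1 of Lipe, against 6.02% of all windows. GC boxes were in 5 of 7 windows, against 32.7% of all. No window of the 5 genes held the estrogen-related receptor element, the PPAR repeat, the full cAMP element, the C/EBP letters or the TATA box, which were in 1.14%, 0.0335%, 1.55%, 9.56% and 12.4% of all windows. A match describes letters in these windows and not a bound site. The windows were richer in G and C than most, at 58.8% to 74.8%, against a median of 52.4% over all windows.

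The libraries held between 4637903 and 12538811 counted reads, with a mean of 8390846 ± 1903543 (SD, n = 24), worked out from the smallest steps in the deposited group means. Hdac3, the targeted gene, averaged 8.57 RPKM at 22 °C, 6.43 RPKM at 24 h and 7.43 RPKM at 7 d in KO, against 26.1, 27.1 and 25.4 RPKM in Control, in the authors' deposited tables. RPKM is the read count scaled to gene length and to the size of the library. The tissue label was borne out by brown adipocyte markers in Control, with Ucp1, the uncoupling protein of brown fat, at a deposited mean of 1607 RPKM at 22 °C. In KO at 22 °C the deposited Ucp1 mean was 32.8 RPKM. None of the 12 brown adipocyte markers was at 0 in any group.

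Pnpla2 and Lipe were among the most abundant transcripts of the depot, and Abhd5 was the least abundant of the 5 in every group. The deposited means of Pnpla2 ran from 451 RPKM in Control at 7 d to 688 RPKM in KO at 7 d, which is a 1.53-fold range. Lipe spanned a 1.91-fold range of deposited means, Mgll and G0s2 1.84-fold each, and Abhd5 2.76-fold, the widest. The deposited tables give group means only, so the value of each single library is not analysed here.

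**Figure D1:**
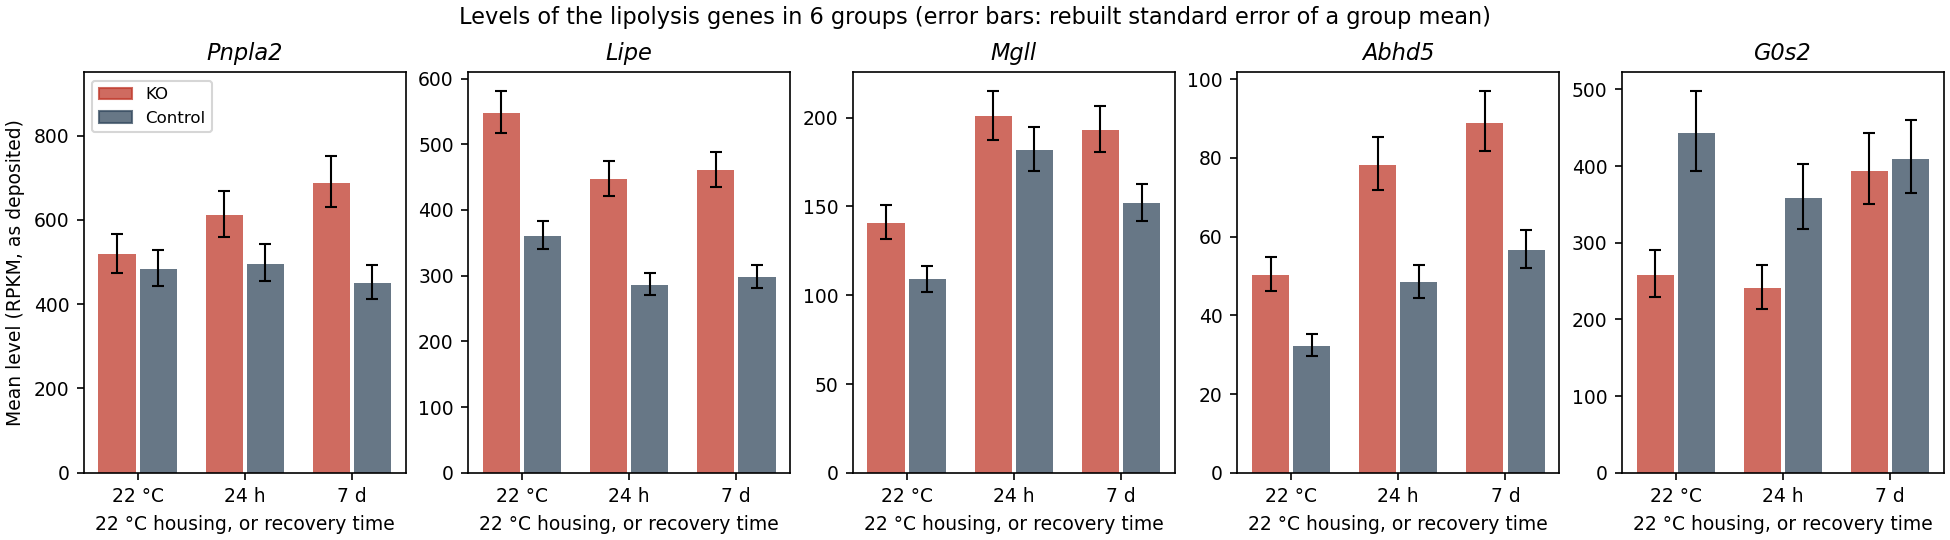
Deposited mean level in RPKM of each lipolysis gene in the 6 groups, KO left of Control at 22 °C, 24 h and 7 d of recovery. Error bars are 1 standard error of a group mean, rebuilt from the deposited p-values. The same log2 error of a gene was used for all 6 groups, so bars do not show a group's own spread. Lipe and Abhd5 stand higher in KO at every time, and G0s2 stands lower in KO at 22 °C and 24 h.

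An error was rebuilt from each deposited fold change and its p-value. For each gene it was nearly the same in all 5 comparisons. It thus describes the authors' fit and is no measured spread of the libraries of any single group. For a fold change between 2 groups of 4 libraries the error was 0.12 on the log2 scale for Lipe, 0.14 for Mgll, 0.17 for Abhd5, 0.18 for Pnpla2 and 0.24 for G0s2. The median error over the 3100 genes that reached 10 RPKM in every group was 0.14. G0s2 thus had the largest rebuilt error of the 5, with a smaller error for 94.9% of those genes. Lipe had the smallest of the 5, with a smaller error for 9.52% of those genes. Read as variation between libraries of a group, these errors would imply 11.6% for Lipe and 23.4% for G0s2, which no library value could check. Small changes of Lipe could therefore be called where changes of like size in G0s2 could not. All intervals below are 95% intervals from these rebuilt errors, and adjusted p-values are the authors' deposited ones unless another test is named.

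Pnpla2 encodes the lipase that opens the pathway. Its deposited mean was 519 RPKM in KO and 483 RPKM in Control at 22 °C, 611 RPKM in KO and 496 RPKM in Control at 24 h, and 688 RPKM in KO and 451 RPKM in Control at 7 d. KO stood above Control at all 3 times, with the widest distance at 7 d. The deposited fold change passed the threshold used here, an adjusted p under 0.05, at 7 d only, where Pnpla2 was 1.60-fold higher in KO (interval 1.25 to 2.04, edgeR adjusted p = 0.00295). At 22 °C the deposited fold was 1.27 (interval 0.994 to 1.62, edgeR adjusted p = 0.135), and at 24 h it was 1.34 (interval 1.05 to 1.72, edgeR adjusted p = 0.0853).

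Lipe encodes hormone-sensitive lipase, a target of protein kinase A. Its deposited mean was 548 RPKM in KO and 361 RPKM in Control at 22 °C, 447 RPKM in KO and 286 RPKM in Control at 24 h, and 460 RPKM in KO and 298 RPKM in Control at 7 d. Every KO mean lay above every Control mean. Lipe was 1.80-fold higher in KO at 22 °C (interval 1.53 to 2.11, deposited edgeR adjusted p = 2.15e-11). The deposited fold was 1.72 at 24 h (interval 1.47 to 2.02, edgeR adjusted p = 3.34e-09) and 1.62 at 7 d (interval 1.38 to 1.90, edgeR adjusted p = 3.26e-07). The antisense gene 4732471J01Rik shares exon bases with Lipe on the opposite strand, and its deposited means were between 0.931 and 2.81 RPKM, far under those of Lipe. No source used here says whether counting took account of strand, so reads of such partners cannot be told apart.

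Mgll encodes the lipase of the closing step. Its deposited mean was 141 RPKM in KO and 109 RPKM in Control at 22 °C, 201 RPKM in KO and 182 RPKM in Control at 24 h, and 193 RPKM in KO and 152 RPKM in Control at 7 d. KO stood above Control at each time, and both genotypes stood higher in recovery than at 22 °C. Mgll was 1.51-fold higher in KO at 22 °C (interval 1.25 to 1.83, deposited edgeR adjusted p = 0.000123) and 1.33-fold higher at 7 d (interval 1.10 to 1.61, edgeR adjusted p = 0.0255). At 24 h the deposited fold was 1.21 (interval 1.00 to 1.46, edgeR adjusted p = 0.172). The call at 7 d was lost at an adjusted p under 0.01. An opposite-strand gene, Gm26588, overlaps exons of Mgll in GENCODE M21, as A730085K08Rik does for Abhd5, and neither is among the listed genes.

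Abhd5 encodes the coactivator. Its deposited mean was 50.3 RPKM in KO and 32.3 RPKM in Control at 22 °C, 78.3 RPKM in KO and 48.5 RPKM in Control at 24 h, and 89.0 RPKM in KO and 56.6 RPKM in Control at 7 d. At each time KO stood above Control, and both genotypes stood higher in recovery than at 22 °C. Abhd5 was 1.81-fold higher in KO at 22 °C (interval 1.43 to 2.30, deposited edgeR adjusted p = 9.75e-06). At 24 h the deposited fold was 1.78 (interval 1.40 to 2.25, edgeR adjusted p = 5.08e-05), and at 7 d it was 1.64 (interval 1.30 to 2.08, edgeR adjusted p = 0.000786).

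G0s2 encodes the inhibitor. Its deposited mean was 258 RPKM in KO and 443 RPKM in Control at 22 °C, 241 RPKM in KO and 358 RPKM in Control at 24 h, and 394 RPKM in KO and 410 RPKM in Control at 7 d. The direction was opposite to the other 4 genes at 22 °C and 24 h. No single comparison of G0s2 passed the threshold. The deposited log2 change was -0.53 at 22 °C (interval -1.0 to -0.06, edgeR adjusted p = 0.0755) and -0.45 at 24 h (interval -0.91 to 0.02, edgeR adjusted p = 0.205). At 7 d the deposited log2 change was 0.02 (edgeR adjusted p = 1), and the ratio of the deposited means, which lacks the authors' normalization factors, gave -0.06.

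In KO against Control at 22 °C, 3 of the 5 genes were called higher and none lower, where 34.3% of the 12710 genes listed in the deposited table were called, 16.3% higher and 18% lower. At 24 h, 2 of 5 were called higher, against 18.5% of 12657 listed genes called, 10.5% higher and 7.96% lower, in the deposited table. At 7 d, 4 of 5 were called higher, against 15.3% of 12467 listed genes called, 9.18% higher and 6.14% lower, in the deposited table. The 5 genes were chosen with earlier results of these data known, so these counts are descriptive. The median deposited log2 change of the 5 genes was 0.60 at 22 °C, 0.43 at 24 h and 0.67 at 7 d. Over all listed genes the deposited medians were -0.01, -0.05 and -0.01. Lipe exceeded 90.4% of listed genes at 22 °C, 94.8% at 24 h and 93.4% at 7 d in its deposited log2 change.

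**Figure D2:**
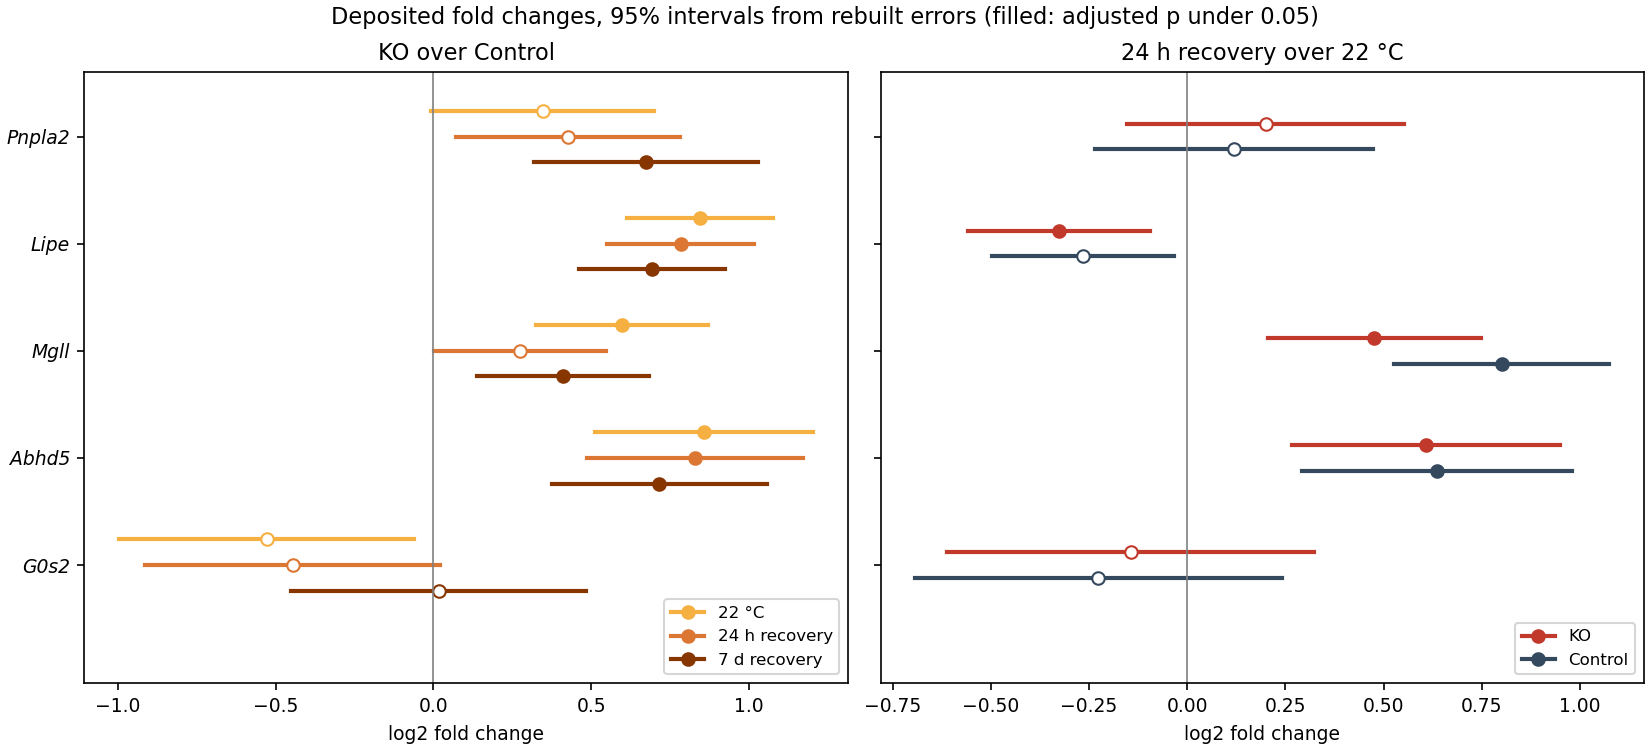
Deposited log2 fold changes of the 5 genes with 95% intervals from rebuilt errors, for KO over Control at 3 times (left) and for 24 h of recovery over 22 °C in KO and Control (right). Filled points passed an adjusted p under 0.05. The intervals of Lipe and Abhd5 lie above 0 in all 3 KO comparisons, and Lipe alone lies below 0 in both recovery comparisons.

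The deposited fold changes carry the authors' normalization factors, which the deposited means do not. The ratio of deposited means ran below the deposited fold change by a log2 shift of -0.24 at 22 °C, -0.14 at 24 h and -0.07 at 7 d, in the same way for all genes. On that scale the deposited means of Pnpla2 differed by a log2 ratio of 0.10 at 22 °C. The 4 genes with KO above Control kept their direction at all 3 times under both scalings, and G0s2 kept its direction except at 7 d.

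The 3 KO comparisons share no library, so their mean gives one value over all 24 libraries. On this mean, for which 43.6% of 11234 genes were called, 20.8% higher and 22.8% lower, Lipe was 1.71-fold higher in KO (interval 1.56 to 1.88, Benjamini-Hochberg adjusted p = 7.33e-28) and Abhd5 1.74-fold higher (interval 1.52 to 2.0, adjusted p = 4.00e-14). Pnpla2 was 1.40-fold higher (interval 1.21 to 1.61, Benjamini-Hochberg adjusted p = 2.18e-05) and Mgll 1.35-fold higher (interval 1.21 to 1.5, adjusted p = 6.91e-07). All 4 stayed called with any 1 time left out. G0s2 was 1.25-fold lower in KO (interval 1.03 to 1.5, Benjamini-Hochberg adjusted p = 0.0479), and this call did not last. Its adjusted p was 0.353 without 22 °C, 0.236 without 24 h, 0.0131 without 7 d, and 0.0580 with a t score on 18 degrees of freedom in place of the normal score. This mean was added after the values had been seen.

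Whether the KO effect itself changed with time was tested as the difference of 2 deposited fold changes over its rebuilt error, adjusted by Benjamini-Hochberg over all genes. None of the 5 genes was called for 24 h minus 22 °C, for 7 d minus 22 °C or for 7 d minus 24 h, and none had an unadjusted p under 0.05, with normal or t scores. Among all genes 16.9%, 13.8% and 0.165% were called. The largest difference was that of G0s2, whose log2 KO effect at 7 d exceeded that at 22 °C by 0.54 (interval -0.12 to 1.21, adjusted p = 0.327). For Pnpla2 the KO effect at 7 d exceeded that at 22 °C by a log2 value of 0.33 (interval -0.17 to 0.83, adjusted p = 0.477). The KO effect of Mgll at 24 h minus that at 22 °C was -0.32 (interval -0.71 to 0.06, adjusted p = 0.283). The calls of Pnpla2 at 7 d and of Mgll at 22 °C are thus not shown to differ from the other times. The intervals allow a log2 change of the Lipe effect between 22 °C and 7 d from -0.48 to 0.18, and of the Abhd5 effect from -0.63 to 0.34.

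Markers of mature adipocytes moved with genotype in the same direction as Lipe and Abhd5. Their summed deposited mean over 12 genes was 29538 RPKM at 22 °C, 27415 RPKM at 24 h and 27779 RPKM at 7 d in KO, against 13970, 15654 and 14960 RPKM in Control. Fabp4 alone made up most of these sums, at 16522, 19070 and 18763 RPKM in KO, against 8202, 9915 and 8980 RPKM in Control. At a deposited adjusted p under 0.05, 8 of 12 were higher in KO at 22 °C, the same number at 24 h, and 4 of 12 at 7 d, with none lower and none at 0. Among all listed genes the deposited shares higher in KO were 16.3%, 10.5% and 9.18%. Summed brown adipocyte markers were 1441, 8828 and 6992 RPKM in KO, against 5914, 9785 and 7998 RPKM in Control. At 22 °C, 7 of 12 were called lower and 2 higher in KO in the deposited table, against 18% and 16.3% of all genes. At 24 h, 2 were called lower and 2 higher, against 7.96% and 10.5%. At 7 d, 1 was called lower and 2 higher, against 6.14% and 9.18%. Fibroblast markers summed to 344, 279 and 296 RPKM in KO, against 319, 492 and 441 RPKM in Control, with none at 0. In the deposited tables, 5 of 10 were called lower and none higher in KO at 24 h, against 7.96% and 10.5% of all genes. At 22 °C, 1 was called higher and none lower, against 16.3% and 18%. At 7 d, 1 was called lower and none higher, against 6.14% and 9.18%. The part of these markers in the results on the 5 genes was not tested. In bulk tissue, fewer cells of a type and less RNA per cell cannot be told apart.

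**Figure D3:**
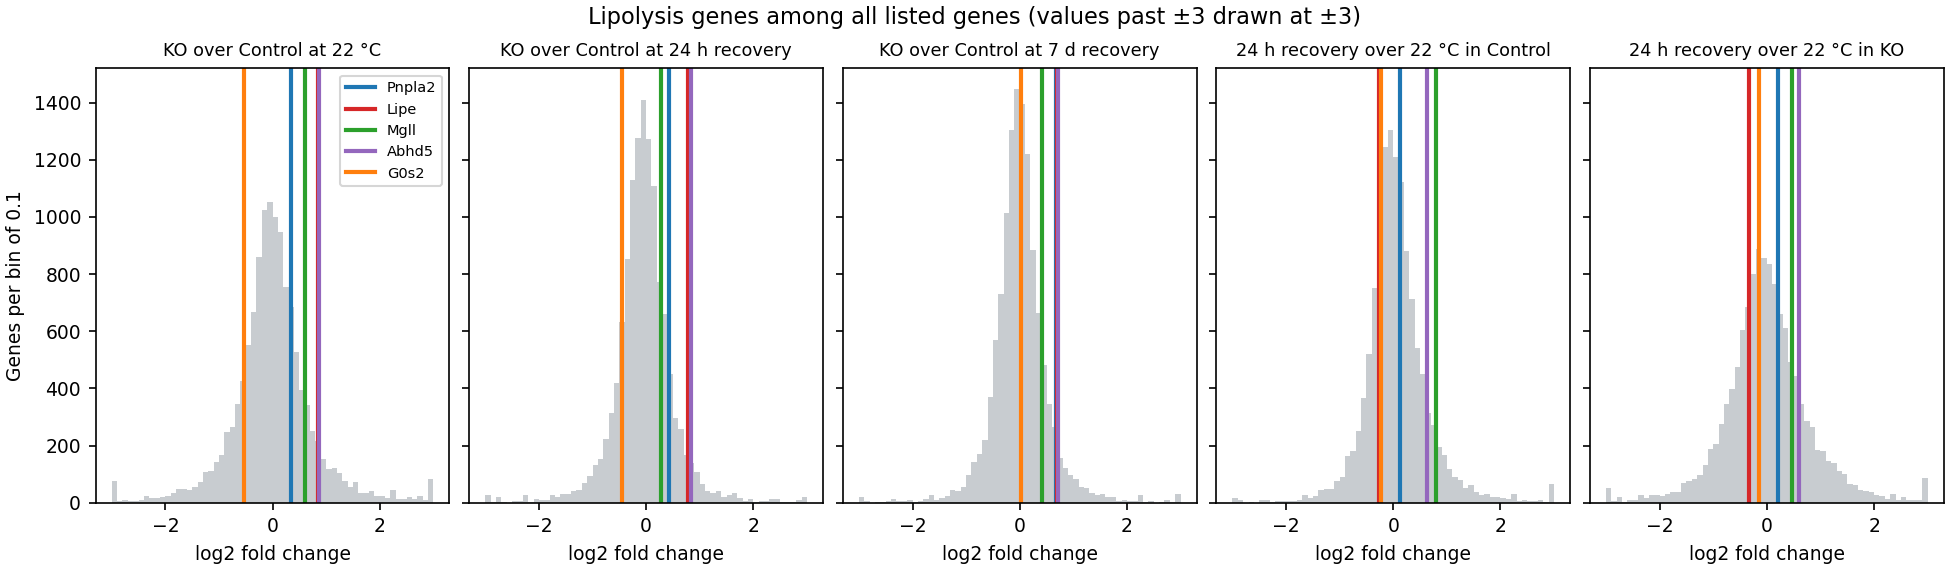
Histograms of the deposited log2 fold changes of all listed genes in the 5 comparisons, in bins of 0.1, with the 5 lipolysis genes as coloured lines. Lipe and Abhd5 sit in the right shoulder in all 3 KO comparisons, and Mgll and Abhd5 do so in both recovery comparisons.

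At 24 h of recovery from cold, Mgll and Abhd5 were higher than at 22 °C in both genotypes, and Lipe was lower. In KO, Mgll was 1.39-fold higher (interval 1.15 to 1.68, deposited edgeR adjusted p = 0.00233) and Abhd5 1.52-fold higher (interval 1.20 to 1.93, deposited edgeR adjusted p = 0.00194). In Control, Mgll was 1.74-fold higher (interval 1.44 to 2.11, deposited edgeR adjusted p = 6.00e-07) and Abhd5 1.55-fold higher (interval 1.22 to 1.97, deposited edgeR adjusted p = 0.00320). Lipe was called lower in KO, where its deposited log2 change was -0.33 (interval -0.56 to -0.10, edgeR adjusted p = 0.0168). In Control the deposited log2 change of Lipe was -0.26 (interval -0.50 to -0.03, edgeR adjusted p = 0.0952). Neither Pnpla2 nor G0s2 was called in either genotype. The deposited log2 change of Pnpla2 was 0.20 in KO and 0.12 in Control, and that of G0s2 was -0.14 in KO and -0.23 in Control.

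The counts were 2 of 5 higher and 1 lower in KO, where 41.9% of 12577 genes listed in the deposited table were called, 22.1% higher and 19.8% lower. In Control, 2 of 5 were higher, where 21.8% of 12830 genes listed in the deposited table were called, 13.1% higher and 8.67% lower. With so large a share of all genes called in KO, 3 of 5 says little about these genes. With a fold of at least 1.5 also required, the KO count fell to 1, which was Abhd5. The KO and Control recovery comparisons share no library with each other, but each shares its groups with the KO comparisons at 22 °C and 24 h.

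Averaged over both genotypes, for which 47.1% of 11767 genes were called, 25.4% higher and 21.7% lower, Mgll was 1.56-fold higher at 24 h than at 22 °C (interval 1.36 to 1.78, Benjamini-Hochberg adjusted p = 9.54e-10). Abhd5 was 1.54-fold higher (interval 1.30 to 1.82, Benjamini-Hochberg adjusted p = 3.04e-06), and Lipe was 1.23-fold lower (interval 1.10 to 1.37, adjusted p = 0.00137). The mean log2 change of Pnpla2 was 0.16 (adjusted p = 0.312) and that of G0s2 was -0.18 (adjusted p = 0.381). The coactivator and the lipase of the closing step thus rose on this mean while the lipase of the middle step fell. Macrophage markers summed to 146 RPKM in KO at 24 h and 126 RPKM in KO at 22 °C, and to 255 RPKM in Control at 24 h and 96.0 RPKM in Control at 22 °C. In KO, none of 10 was called higher with recovery and 2 were called lower, at a deposited adjusted p under 0.05. In Control, 8 were called higher and none lower. The shares of all genes were 22.1% higher and 19.8% lower in KO, and 13.1% higher and 8.67% lower in Control. No macrophage marker was at 0, and their part in the Control results was not tested. Mature adipocyte markers were called higher for 0 and lower for 6 of 12 in KO, and higher for 4 and lower for 4 in Control, in the deposited recovery tables. Among all genes 22.1% were higher and 19.8% lower in KO, and 13.1% higher and 8.67% lower in Control.

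No table sets 7 d against 22 °C within a genotype, so the group means were compared after centring on the median of all genes, without a test. Abhd5 was 1.71-fold higher at 7 d than at 22 °C in KO, which is 4.42 times its error for a comparison of 2 groups, and 1.90-fold higher in Control, or 5.29 times its error. Mgll had centred log2 ratios of 0.40 in KO and 0.59 in Control, or 2.91 and 4.27 errors. Both genes thus stood above their 22 °C level 7 d after the cold by more than their rebuilt error. Lipe had ratios of -0.30 in KO and -0.16 in Control, or 2.55 and 1.39 errors. Pnpla2 had ratios of 0.36 in KO and 0.01 in Control. G0s2 had a ratio of 0.56 in KO, or 2.35 errors, and 0.00 in Control. Centring on genes of at least 10 RPKM instead moved the KO ratios to 0.19 for Pnpla2, -0.47 for Lipe and 0.23 for Mgll. It also lowered those of Abhd5 and G0s2 in KO, to 0.60 and 0.39. In Control it moved Lipe to -0.27, Mgll to 0.49 and Abhd5 to 0.82. It left Pnpla2 at -0.09 and G0s2 at -0.11 in Control, so neither has a direction there. Skeletal muscle markers summed to 754 RPKM in KO at 7 d and 163 RPKM in KO at 22 °C, and to 894 RPKM in Control at 7 d and 179 RPKM in Control at 22 °C, with none of the 12 at 0. Their part in the values at 7 d was not tested.

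**Figure D4:**
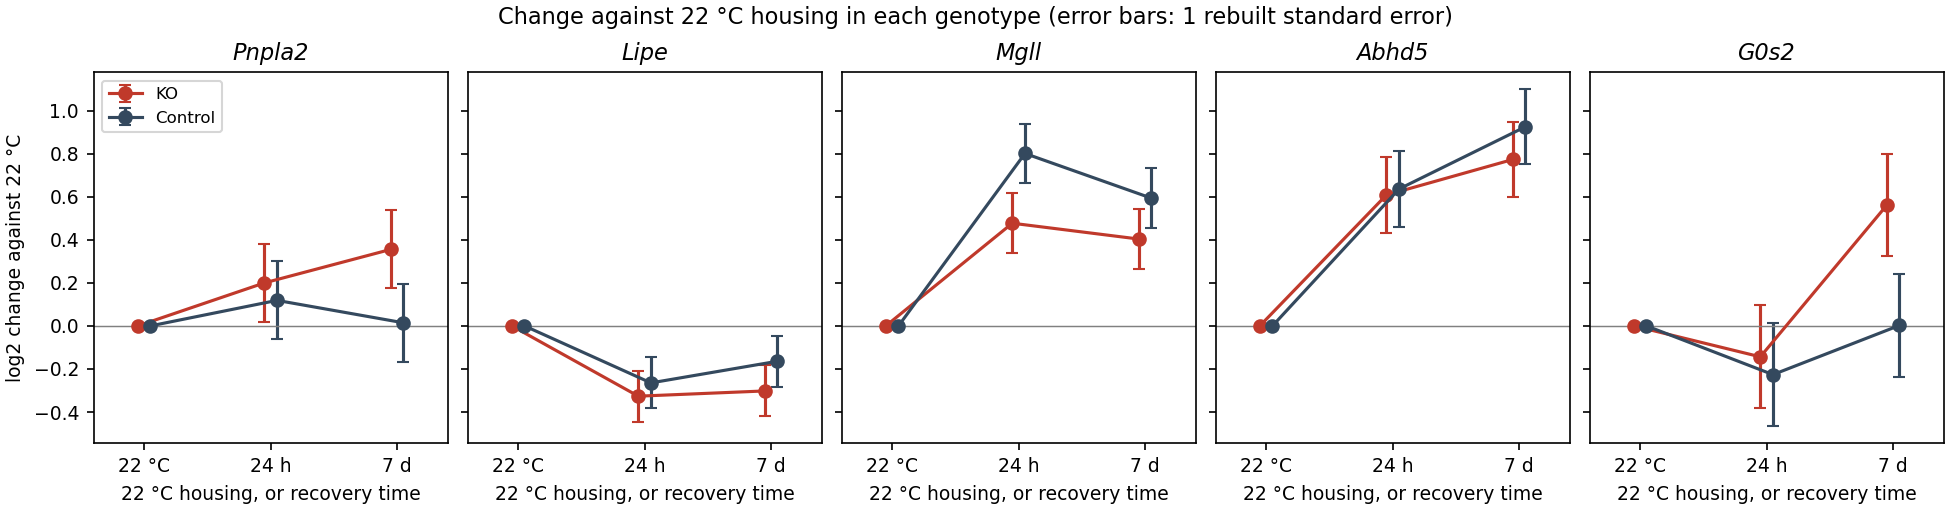
Log2 change against 22 °C in KO and in Control, from the deposited fold change at 24 h and from centred group means at 7 d. Bars are 1 rebuilt standard error of a comparison, with the same value used throughout for a gene. Mgll and Abhd5 lie above 0 at both times in both genotypes, Lipe lies below 0, and Pnpla2 and G0s2 lie above 0 by more than 1 error at 7 d in KO.

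All 6 groups were put on the scale of the deposited fold changes. No deposited fold change links 7 d to the other times, so that shift was fitted through the average log2 CPM. A fit of this kind missed known shifts by up to 0.03 on the log2 scale. The groups were then sorted by these same levels. The gaps between neighbours are thus descriptive and no test, with no allowance for the sorting or the number of gaps. In that order the groups fell into steps for 3 of the genes. For Abhd5 the order was KO at 7 d, KO at 24 h, Control at 7 d, KO at 22 °C, Control at 24 h and Control at 22 °C. Gaps past the 95% interval lay between KO at 24 h and Control at 7 d, at 3.12 errors, and between Control at 24 h and Control at 22 °C, at 3.73 errors. For Lipe the order was KO at 22 °C, KO at 7 d, KO at 24 h, Control at 22 °C, Control at 7 d and Control at 24 h. Its widest gap, at 4.32 errors, set the lowest KO group apart from the highest Control group, and KO at 22 °C stood 2.52 errors above KO at 7 d. For Mgll the order was KO at 24 h, KO at 7 d, Control at 24 h, KO at 22 °C, Control at 7 d and Control at 22 °C. Only Control at 22 °C stood apart for Mgll, at 4.36 errors under the next group. For Pnpla2 and G0s2 no pair of neighbours differed past that interval, with widest gaps of 1.32 and 1.25 errors. Pnpla2 ran from KO at 7 d, KO at 24 h and KO at 22 °C down to Control at 24 h, 7 d and 22 °C, and G0s2 was lowest in KO at 24 h and KO at 22 °C.

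The inhibitor and the coactivator were set against the lipase they act on as ratios of deposited mean RPKM. G0s2 per Pnpla2 was 0.497 in KO and 0.916 in Control at 22 °C, 0.394 in KO and 0.721 in Control at 24 h, and 0.573 in KO and 0.909 in Control at 7 d. The KO ratio was below the Control ratio at all 3 times. Abhd5 per Pnpla2 was 0.0968 in KO and 0.0668 in Control at 22 °C, 0.128 in KO and 0.0978 in Control at 24 h, and 0.129 in KO and 0.126 in Control at 7 d, where the gap was far within the rebuilt errors of both genes. Abhd5 per G0s2 was 0.195 in KO and 0.0729 in Control at 22 °C, 0.325 in KO and 0.136 in Control at 24 h, and 0.226 in KO and 0.138 in Control at 7 d. Apart from Abhd5 per Pnpla2 at 7 d, no gap between KO and Control in these ratios was set against an error. These are ratios of transcripts from group means, with no test, and say nothing of protein.

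**Figure D5:**
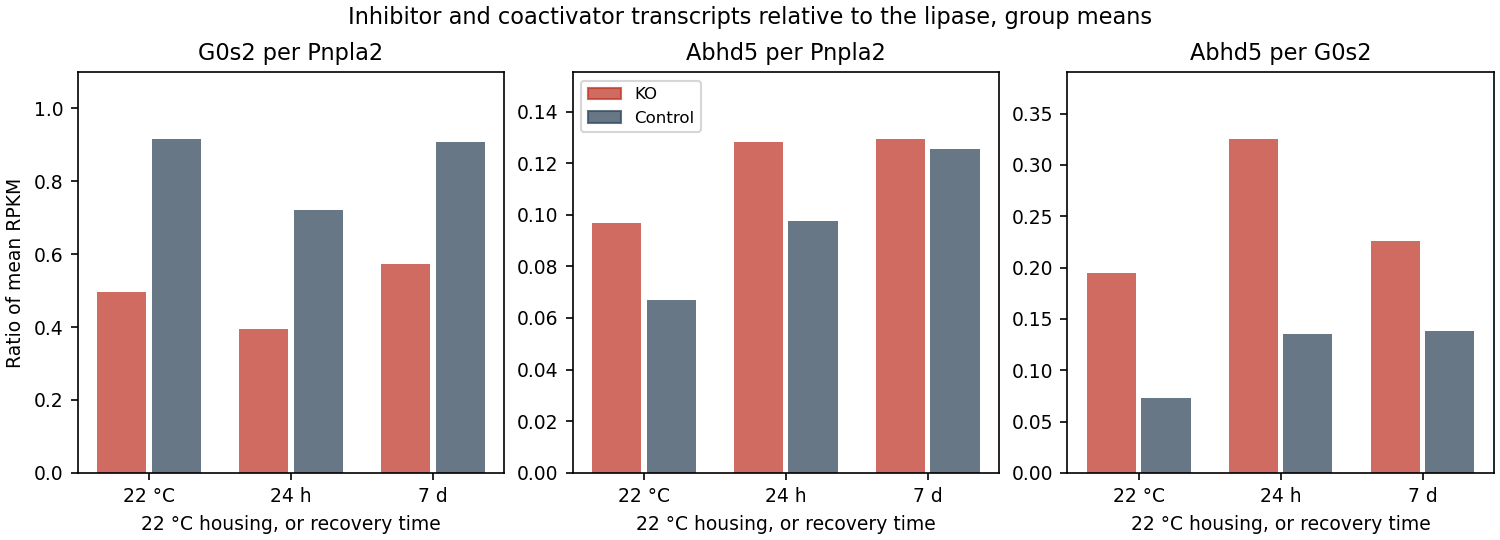
Ratios of deposited mean RPKM of the inhibitor G0s2 and the coactivator Abhd5 to Pnpla2, and of Abhd5 to G0s2, KO left of Control at 22 °C, 24 h and 7 d of recovery. G0s2 per Pnpla2 is lower in KO at each time, and Abhd5 per G0s2 is higher in KO at each time.

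Genes that guard the lipid droplet, and other lipases, were listed for 28 of 30. At a deposited adjusted p under 0.05, 12 rose and 6 fell in KO at 22 °C, 12 rose and 2 fell at 24 h, and 9 rose and 1 fell at 7 d. Those counts stand beside shares of all listed genes of 16.3% higher and 18% lower at 22 °C, 10.5% and 7.96% at 24 h, and 9.18% and 6.14% at 7 d, which also apply to the lists below. The median deposited log2 change of the list was 0.31, 0.29 and 0.19 at those times, against -0.01, -0.05 and -0.01 over all genes. Plin2, a coat protein of the droplet, was 5.94-fold higher in KO at 22 °C, 4.76-fold at 24 h and 4.40-fold at 7 d in the deposited tables. Cidec, which fuses droplets, was 4.31-fold, 2.51-fold and 3.05-fold higher in the deposited tables. Ddhd1, a phospholipase, was 4.36-fold lower in KO at 22 °C and 2.02-fold lower at 7 d, and Pnpla8, another phospholipase, was 1.76-fold higher at 24 h, in the deposited tables. With 24 h of recovery, 11 of 28 rose and 6 fell in KO, where 22.1% of all genes rose and 19.8% fell in the deposited table, so the number that fell was near the share of all genes. In Control, 8 of 28 rose and 3 fell, where 13.1% of all genes rose and 8.67% fell in the deposited table. The median deposited log2 change of the list was 0.23 in KO and 0.03 in Control, against -0.02 in KO and 0.01 in Control over all genes. The deposited KO table has Lipa, the lysosomal acid lipase, 5.67-fold higher, Cidea 2.91-fold higher and the droplet coat gene Plin4 3.92-fold lower. The deposited Control table has Abhd6, a monoacylglycerol hydrolase, 2.66-fold higher and Bscl2, which encodes seipin, 1.75-fold higher, with Ddhd1 1.87-fold lower.

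Genes of the hormone signal to lipolysis, from receptors to protein kinase A and phosphodiesterases, were listed for 31 of 32. At a deposited adjusted p under 0.05, 10 rose and 5 fell in KO at 22 °C, 8 rose and 3 fell at 24 h, and 7 rose and 1 fell at 7 d. The list had a median deposited log2 change of 0.30, 0.23 and 0.20 at those times. Gnai1, an inhibitory G protein subunit, was 3.34-fold higher in KO at 22 °C, 3.57-fold at 24 h and 2.82-fold at 7 d in the deposited tables. At 22 °C Adcy5, an adenylyl cyclase, was 6.96-fold higher in KO and Pde4d, a phosphodiesterase, 3.74-fold lower in the deposited table. At 24 h the deposited table has Adrb3, the β3-adrenergic receptor, 2.95-fold higher in KO and Pde3b, the phosphodiesterase through which insulin restrains lipolysis, 1.87-fold higher. At 7 d Adcy3 was 2.27-fold and Insr, the insulin receptor, 1.66-fold higher in KO in the deposited table. Members that raise cAMP and members that lower it were thus both among those that rose. With recovery, 8 of 31 rose and 9 fell in KO, against 22.1% and 19.8% of all genes, and 3 of 30 listed rose and 5 fell in Control, against 13.1% and 8.67%, in the deposited tables. The numbers that rose were thus near or under the share of all genes. The median deposited log2 change of this list was -0.29 in KO and -0.25 in Control. Adcy3 was 5.84-fold higher in KO and 3.31-fold higher in Control, and Adora1, an adenosine receptor, was 2.97-fold lower in KO and 1.91-fold lower in Control, in the deposited tables. Hcar2, a receptor that inhibits lipolysis, was 7.78-fold lower in KO, and Akap1, an anchor of protein kinase A, was 1.52-fold lower in Control, in the deposited tables.

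Transcription factors known to act on lipolysis genes were listed for 22 of 24. At a deposited adjusted p under 0.05, 7 rose and 5 fell in KO at 22 °C, 4 rose and 1 fell at 24 h, and 6 rose and none fell at 7 d. Their median log2 change in the deposited tables was 0.12, -0.03 and 0.22 at those times. At 22 °C Rxra, the partner of PPARs, was 2.90-fold higher, Srebf1 2.84-fold higher and Esrrg, an estrogen-related receptor, 5.06-fold lower in KO in the deposited table. Cebpa was 1.95-fold higher in KO at 24 h and 1.93-fold at 7 d in the deposited tables. Ppara was 1.72-fold and Nr3c1, the glucocorticoid receptor, 1.41-fold higher in KO at 24 h in the deposited table. Cebpb was 1.80-fold and Rxra 1.48-fold higher in KO at 7 d in the deposited table. With recovery, 6 of 22 rose and 8 fell in KO, against 22.1% and 19.8% of all genes, and 3 of 22 rose and 5 fell in Control, against 13.1% and 8.67%, in the deposited tables. The numbers that rose were near the share of all genes. These factors had a median deposited log2 change of -0.19 in KO and also -0.19 in Control. Esrrg was 4.07-fold higher and Esrra 2.26-fold higher in KO, with Rxra 2.17-fold lower, in the deposited table. In Control, Ppara was 2.33-fold, Esrrg 1.95-fold and Cebpa 1.71-fold lower in the deposited table.

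Genes that handle the released fatty acids and glycerol were all listed, 22 of 22. At a deposited adjusted p under 0.05, 8 rose and 7 fell in KO at 22 °C, 11 rose and 1 fell at 24 h, and 9 rose and 1 fell at 7 d. For the group, the median deposited log2 change was 0.09, 0.49 and 0.39 at those times. Lpl, the lipase that takes fatty acids from blood lipoproteins, was 4.32-fold higher in KO at 22 °C, 2.70-fold at 24 h and 3.03-fold at 7 d in the deposited tables. At 22 °C Slc27a1, a fatty acid transporter, was 3.58-fold higher in KO, and Cpt1b, which admits fatty acids to mitochondria, was 4.28-fold lower, in the deposited table. Fabp4, the fatty acid binding protein of adipocytes, was 2.13-fold higher in KO at 24 h and 2.19-fold at 7 d in the deposited tables. Fabp5 was 5.32-fold higher in KO at 24 h, and Acsl1, an acyl-CoA synthetase, 2.06-fold higher at 7 d, in the deposited tables. With recovery, 15 of 22 rose and 2 fell in KO, against 22.1% and 19.8% of all genes, and 12 of 22 rose and 1 fell in Control, against 13.1% and 8.67%, in the deposited tables. This group had a median deposited log2 change of 0.79 in KO and 0.40 in Control. Cpt1b was 6.10-fold, Slc25a20, the carnitine carrier, 4.97-fold and Fabp3 37.3-fold higher in KO in the deposited table. In Control, Acsl5 was 4.64-fold and Lpl 1.93-fold higher, and Aqp7, a glycerol channel, 1.98-fold lower, in the deposited table. Several members of these lists, among them Lpl, Fabp4 and Cidec, are also mature adipocyte markers.

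Over the 6 group means, the genes nearest in pattern were ranked by the root mean square difference of log2 levels, each centred on its own mean. Before the log, 1 RPKM was added to each mean. The genes had a mean in all 6 groups and reached 10 RPKM in some group, and predicted loci and small RNAs were left out. Nearest to Pnpla2 were Tex2 and Plod1, at 0.05 each, and Lonp2 at 0.06. Nearest to Lipe were Ranbp9 at 0.05 and Stx6 and Map3k5 at 0.08 each. Nearest to Mgll were Btd and Tfdp1 at 0.07 each and Rab7 at 0.08. Nearest to G0s2 were D2hgdh at 0.08, Echdc3 at 0.09 and Anapc16 at 0.10. Abhd5 had no gene so near, with Apex2 at 0.14 and Atat1 and Cox19 at 0.15 each. None of the 5 lipolysis genes was among the 3 nearest of another. Among the 5, Pnpla2 and Mgll were closest, at 0.23, and Abhd5 and G0s2 were farthest apart, at 0.67. Of the 15 genes named as nearest, 12 were kept with 0.1 RPKM added instead, and 12 when genes reaching 1 RPKM were admitted. These distances describe 6 means that share libraries and depth.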

How the data were processed

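Per the labels' protocols, RNA of interscapular brown fat was freed of ribosomal RNA before TruSeq libraries were made from it. STAR, featureCounts and edgeR and the build mm9 are named in the submitters' processing notes. Their versions and settings are not known from the labels or headers. Each of the 5 tables the authors deposited sets a pair of groups against each other. Per the file headers, it gives for each gene the log2 fold change with its p-value and adjusted p-value, and a log2 CPM averaged over libraries. The deposited group means carry no named unit and were read as RPKM, since they scale with gene length and library size and move in steps of 1 read. A listed gene has a mean of at least 0.5 RPKM in 1 of its 2 groups. The authors' comparisons were turned so that KO stands over Control and recovery over 22 °C.

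A gene was called here at a deposited adjusted p under 0.05. The authors' own status column is stricter and marks an adjusted p under 0.01 with a fold of at least 1.5. The error of each fold change was rebuilt as its size over the normal score of its p, which is approximate, and took nearly the same value in all 5 tables for each gene. Differences of KO effects and equal-weight means of fold changes were tested with these errors, adjusted by Benjamini-Hochberg over all genes. On simulated data with 10237 genes in 20 runs, the difference test recovered 95.7% of changes of log2 size 2 with 4.85% of calls false. The mean test of KO effects recovered 98.6% of changes of log2 size 1 with 4.81% false. Differences as small as those of the 5 genes, of which the largest was 0.54, were not simulated. Simulated noise was drawn from the rebuilt errors, so the approximation itself was not checked. Alternatives were a threshold of 0.01, a fold of 1.5, the authors' status column, the ratio of means, other scalings and t scores. Named genes are the 5 members, Hdac3 and Ucp1, the 3 nearest in pattern to each member, and up to 3 genes of each list with the smallest deposited p among those called in a comparison. The members and lists were chosen with earlier results of these data known. Python 3.11.15, numpy 2.4.6, pandas 2.3.3, SciPy 1.17.1 and matplotlib 3.10.9 were used.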

Additional observations from a re-analysis of the deposited data

How the results depend on the processing

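The count of lipolysis genes called at 24 h of recovery against 22 °C in KO was 3 and became 1 with a fold of at least 1.5 and 1 by the authors' status column, since Lipe and Mgll changed by less than that fold. At 7 d against 22 °C in KO, centring on genes of at least 10 RPKM gave log2 ratios of -0.47 for Lipe, 0.23 for Mgll and 0.19 for Pnpla2. The ratios of Abhd5 and G0s2 fell to 0.60 and 0.39, and the cause was not tested. The ratio of deposited means reversed G0s2 in KO against Control at 7 d, to -0.055. The other counts of lipolysis genes stayed within 1.5 times under the alternatives run. Among the pathway lists, 4 counts moved by more than that at a threshold of 0.01. No paired analysis was possible because the tables hold no value per library, and for the same reason leaving out single libraries was not run. Abhd5 rested on the fewest reads, about 744 per library in Control at 22 °C.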
